A study of Mus musculus with 14 samples.

Results

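Genes that bring proteins into mitochondria and genes that join or divide mitochondria were measured by RNA sequencing in the brain of aged mice. They were chosen by name: every Tomm and Timm gene with a number in its symbol (25 rows of the count table) and 15 rows of single genes, namely Timmdc1, Dnajc19 (2 rows), Pam16, Grpel1, Mfn1, Mfn2, Opa1, Oma1, Yme1l1, Dnm1l, Fis1, Mff, Mief1 and Mief2, with pseudogenes left out. This gave 40 of the 43346 genes in the table. The libraries came from 3 groups: 4 NTG mice, which carry no transgene, 5 vehicle-treated APP/PS1 mice, called APP/PS1 below, and 5 that received CP2. APP/PS1 mice are double transgenic for mutant human amyloid precursor protein and presenilin 1 and develop amyloid plaques, and CP2 is a small molecule that weakly inhibits complex I of the respiratory chain. All 14 mice were female, of the C57BL/6;SJL-Tg strain and 23 months old, and a piece of brain holding hippocampus and cortex was used from each. CP2 was given at 25 mg/kg/day in drinking water with 0.1% PEG from 9 months of age, and both other groups, which the labels call non-treated, drank the PEG water alone. NTG mice given CP2 were not analysed here. Mice are named by their library numbers, 7 to 10 in NTG, 16 to 20 in APP/PS1 and 21 to 25 in CP2-treated APP/PS1 mice.

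Almost all mitochondrial proteins are encoded in the nucleus, made in the cytosol and imported. They pass the outer membrane through the TOM complex, in which Tomm20, Tomm22 and Tomm70 (here Tomm70a) are receptors and Tomm40 forms the pore. The TIM23 complex then takes proteins with a presequence across the inner membrane, pulled by a motor on the matrix side, whereas the TIM22 complex inserts carrier proteins that small TIM chaperones escort between the membranes. Mitochondria also fuse and divide. Mfn1 and Mfn2 fuse the outer membrane and Opa1, which the proteases Oma1 and Yme1l1 cut, fuses the inner membrane. Dnm1l (Drp1) constricts mitochondria after it is recruited by Mff, Mief1 (Mid51), Mief2 (Mid49) and Fis1. In neurons this balance bears on the supply of mitochondria to axons and synapses.

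Total counts per mouse lay between 70548781 and 106235625. Of the 40 rows 38 passed the filter on low counts (over 1 CPM, a count scaled to library size, throughout 1 or both of the groups) in all 3 comparisons. The other two were Tomm20l, with 26 to 54 counts per mouse, and Timm8a2, with 0 to 4 counts. The filter kept both out of the reported fits, so no difference between groups is given for them. With 0 to 4 counts Timm8a2 could show none at this depth. The levels below are CPM scaled with TMM factors, and differences are log2 fold changes from edgeR with the p adjusted over all genes tested. A few mice stood apart in the tissue they held. Mouse 16 had a summed level of 10 striatal markers of 2767 CPM, against 245 to 454 CPM in the other 13 mice. The sums of 8 oligodendrocyte markers were 5277 to 7679 CPM in NTG, 4745 to 7194 in APP/PS1 and 5563 to 6292 with CP2. Mouse 7 was the highest of all mice in this sum. Sums of 6 choroid plexus markers were 25.2 to 955, 27.3 to 1356 and 191 to 750 CPM in the same order. Summed levels of 8 dentate gyrus markers were 132 to 172 CPM in NTG, 43.8 to 125 CPM in APP/PS1 and 116 to 130 CPM in CP2-treated mice. Both APP/PS1 groups lay wholly below NTG in this sum. Against NTG 7 of these 8 markers were below 0 in each APP/PS1 group, and Glp1r was above it. All but Glp1r were above 0 with CP2 against vehicle. With edgeR 1, Tdo2, had an adjusted p under 0.05 in APP/PS1 against NTG (5.68% of all genes). In CP2-treated mice against NTG 2 did, Tdo2 and C1ql2 (6.02% of all genes). The 12 neuronal markers, none of them at 0, summed to 8798 to 10371 CPM in NTG, 8577 to 10452 CPM in APP/PS1 and 9048 to 9863 CPM in CP2-treated mice. Those of 10 microglial markers were 426 to 448, 835 to 1271 and 734 to 1060 CPM in the same order. Those of 8 astrocyte markers were 5014 to 5612, 4337 to 4931 and 4435 to 4826 CPM, and both APP/PS1 groups stood apart from NTG in both sums. Slc1a2 had the largest share of the astrocyte sum, with means of 3158 CPM in NTG, 2376 in APP/PS1 and 2543 with CP2. In APP/PS1 against NTG 5 of the 8 astrocyte markers were below 0 and 3 above it, Aqp4, Slc1a3 and Aldh1l1. In CP2-treated mice against NTG 7 were below 0 and 1, Aqp4, above it. The summed levels of 7 endothelial markers were 194 to 207, 199.6 to 286 and 225 to 248 CPM. Those of 9 thalamic markers were 372 to 625, 229 to 478 and 397 to 599 CPM. All 9 had a log2 fold change below 0 in APP/PS1 against NTG and above 0 with CP2 against vehicle. With edgeR 0 had an adjusted p under 0.05 in either (5.68 and 0.00609% of all genes). An unadjusted p under 0.05 was reached by 1 and 4 (18.7 and 6.55% of all genes). The part of all these marker differences in the results below was not tested, and in such bulk tissue fewer cells of a type and less RNA per cell cannot be told apart.

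Levels per length were compared as the deposited RPKM values, and they are given as mean ± SD over all 14 mice. The highest belonged to Timm8b, a small TIM chaperone, at 70.6 ± 8.58, to Tomm20 at 58.5 ± 3.74, to Dnm1l at 47.9 ± 3.06, to Fis1 at 45.6 ± 4.32 and to Tomm70a at 42.7 ± 6.07. Dnm1l, Fis1 and Tomm70a, neighbours in this order, differed by less than the SD of Tomm70a. Of the fusion genes Mfn2 stood at 30.1 ± 1.95, Opa1 at 18.8 ± 0.904 and Mfn1 at 9.44 ± 0.701, so that Mfn2 was the most abundant of the 3 per length. Among the fission receptors Fis1 was followed by Mff at 15.7 ± 1.09, Mief2 at 5.17 ± 0.368 and Mief1 at 4.07 ± 0.203. The pore gene Tomm40 had 11.2 ± 0.476 and the inner channel gene Timm23 8.41 ± 0.780. At the low end of the 38 genes were Oma1 at 2.26 ± 0.270 and Timm8a1 at 1.25 ± 0.154. Per length, the members thus spanned from 1.25 to 70.6 RPKM, while the means of the 3 groups lay close together for most genes in the plot of levels per length, with Oma1 at 1.98 in NTG and 2.41 in APP/PS1 among the exceptions.

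**Figure D1:**
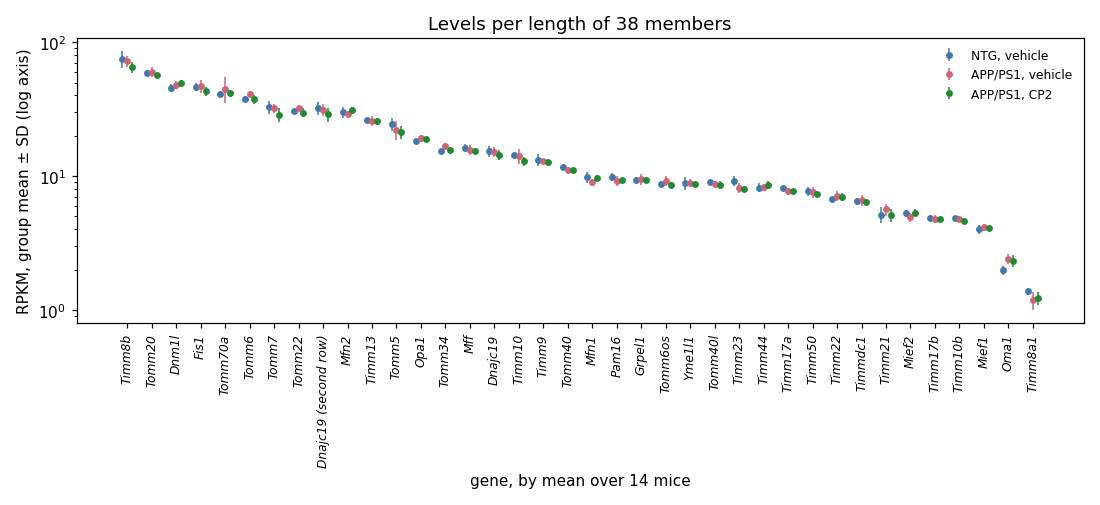
Deposited RPKM (log axis) of the 38 tested members, ordered by their mean over 14 mice; points are group means and bars SD over 4 NTG, 5 vehicle APP/PS1 and 5 CP2-treated APP/PS1 mice. Timm8b leads at a mean of 70.6 and Timm8a1 ends the order at 1.25, and the 3 groups lie close together for most genes.

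The first comparison asked how these genes differed between APP/PS1 and NTG mice, both on vehicle. Most stood slightly lower in APP/PS1 mice: 28 of 38 log2 fold changes were below 0 (over all 16417 genes tested, 51.2% were), with a median of -0.08 against -0.004 over all genes; the median was -0.03 without mouse 7 and -0.05 without mouse 20. No member had an adjusted p under 0.05 (5.68% of all genes did). At an unadjusted p under 0.05, 7 were lower (8.05% of all genes were), namely Tomm40, Mfn1, Timm23, Timm17a, Mief2, Tomm40l and Timm8a1, and 1 was higher (10.6% of all genes), Oma1. In 3 of them, Tomm40, Oma1 and Timm8a1, the 2 groups did not overlap (9.97% of all genes). The changes were small: no log2 fold change exceeded 0.3 in size, and the 95% intervals of the 38 ran from -0.54 (Timm8a1) to 0.41 (Oma1). With DESeq2 2 members passed an adjusted p of 0.05 (10.2% of all genes did), Tomm40 (adjusted p = 0.0180) and Mfn1 (adjusted p = 0.0393), and with limma-voom 1 (9.52% of all genes), Tomm40 (adjusted p = 0.0370). Over all alternatives the adjusted p of Tomm40 ranged from 0.0180 to 0.333 and that of Mfn1 from 0.0393 to 0.385. The count at an unadjusted p under 0.05, 8 of 38 (18.7% of all genes), was 3 (14.8% of all genes) with the share of ribosomal RNA-like transcripts (2.40 to 5.51% of counts in APP/PS1, 4.72 to 7.50% in NTG) as a covariate, 4 (15.8%) without mouse 8 and 5 (17.3%) without mouse 20.

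The next comparison, of CP2 with vehicle in APP/PS1 mice, asked whether the treatment changed these genes. Here 27 of 38 log2 fold changes were below 0 (52.5% of all 16407 genes tested were), with a median of -0.02 against -0.006 over all genes; the median was -0.04 without mouse 20, -0.03 without mouse 22 or 23 and -0.005 without mouse 25. No member had an adjusted p under 0.05 with edgeR, DESeq2 or limma-voom (0.00609% of all genes did with edgeR and limma-voom, 0.140% with DESeq2). At an unadjusted p under 0.05, 2 were higher in CP2-treated mice (2.88% of all genes), Mfn1 and Mief2, and 1 was lower (3.66% of all genes), Tomm6. In no member were the groups without overlap (1.18% of all genes). All 38 intervals lay between -0.38 (Tomm70a) and 0.34 (Timm8a1) on the log2 scale, which leaves room for differences of up to 22.9% downward and 26.2% upward. The count of 3 (6.55% of all genes) became 0 with the ribosomal RNA share as a covariate (4.43% of all genes), 1 without mouse 16, 17 or 24 (9.54, 4.76 and 3.90%), 5 without mouse 22 (8.26%) and 6 without mouse 20 (7.55%).

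The last comparison set the CP2-treated group against NTG, to ask what difference was left under treatment. Here 34 of 38 log2 fold changes were below 0 (50.6% of all 16416 genes tested), with a median of -0.08 against -0.002 over all genes. No member passed an adjusted p of 0.05 with edgeR or limma-voom (6.02% of all genes did with edgeR and 7.76% with limma-voom), and 1 did with DESeq2 (10.2% of all genes), Timm23 (adjusted p = 0.0296, with a range of 0.0296 to 0.194 over all alternatives). At an unadjusted p under 0.05, 8 were lower (8.59% of all genes) and 0 higher (11.6% of all genes). These 8 were Timm23, Timm10, Tomm5, Tomm40, Tomm7, Timm8b, Fis1 and Timm10b, of which Fis1 alone is no import gene. In no member did these groups stand without overlap (9.73% of all genes). The count of 8 (20.2% of all genes) was 4 with the ribosomal RNA share as a covariate (18.5%), 2 without mouse 8 (16.7%), 4 without mouse 24 or 25 (17.3 and 17.8%) and 5 without mouse 7 or 21 (20.9 and 16.7%). It was 13 without mouse 23 (22.2% of all genes) and 14 without mouse 10 (21%). Without mouse 10 or mouse 23 Timm23 also reached an adjusted p of 0.0426 and 0.0476 (4.08 and 6.80% of all genes had an adjusted p under 0.05 there). The 3 comparisons share groups of mice with each other, so their values stand side by side and do not support one another.

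**Figure D2:**
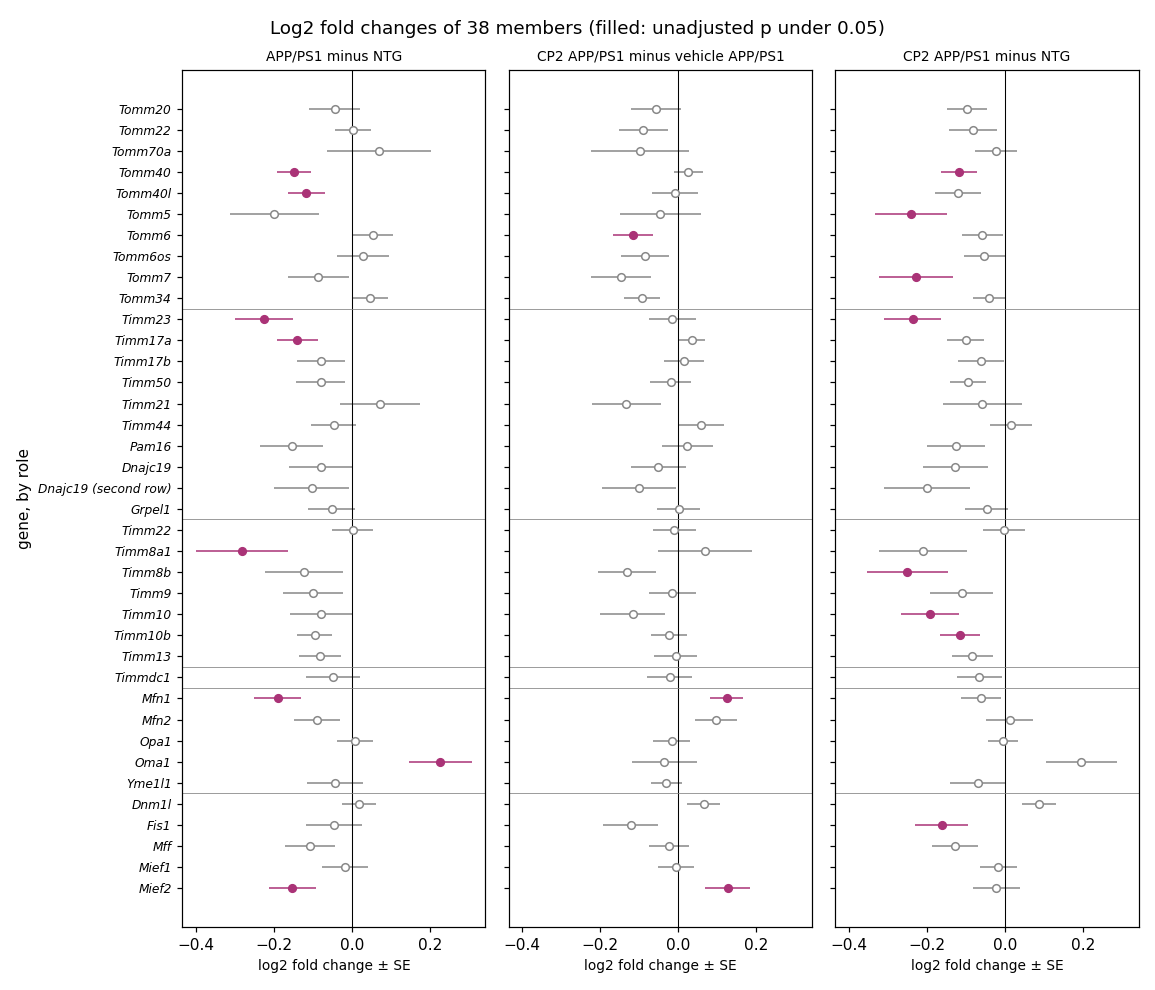
Log2 fold changes (points) with SE (bars) of the 38 tested members, grouped by role, in the 3 comparisons; filled points have an unadjusted p under 0.05. In APP/PS1 against NTG 7 filled points lie left of 0 and 1 right of it, with CP2 1 lies left and 2 right, and in CP2-treated APP/PS1 against NTG all 8 lie left.

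Of the 10 Tomm genes, the antisense row Tomm6os aside, 9 were tested, all but Tomm20l. Of these 9, 5 were below 0 in APP/PS1 against NTG (median log2 fold change -0.04), with CP2 against vehicle 8 (median -0.09) and in CP2-treated mice against NTG all 9 (median -0.10). Tomm40 (ENSMUSG00000002984, chr7:19701313-19715438 in mm10), the pore of the outer membrane, had 58.4, 63.1, 65.1 and 60.4 CPM in NTG mice 7 to 10, 55.5, 56.7, 54.6, 54.9 and 56.9 in APP/PS1 mice 16 to 20 and 55.7, 57.3, 59.9, 57.5 and 53.9 in CP2-treated mice 21 to 25. All 5 vehicle APP/PS1 mice stood below all 4 NTG mice, while the CP2-treated mice overlapped with both. Its log2 fold change in APP/PS1 against NTG was -0.15 ± 0.0429 (SE; unadjusted p = 0.00616, adjusted p = 0.0803), and with CP2 it was 0.03 (95% interval -0.06 to 0.11). The direction in APP/PS1 held in all 17 alternatives, each with an unadjusted p under 0.05. Its paralogue Tomm40l differed by -0.12 ± 0.0464 (SE; unadjusted p = 0.0313, adjusted p = 0.208), but 64.3% of its exonic bases are shared with Nr1i3 on the other strand. The libraries do not mark strand, so reads from the shared bases could not be told apart and the count of Tomm40l is uncertain.

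The receptors did not differ beyond their spread. Tomm20, the presequence receptor, had 349, 381, 357 and 379 CPM in NTG, 405, 343, 354, 327 and 350.2 in APP/PS1 and 327, 324, 371, 344 and 349 in CP2-treated mice. Tomm22, the central receptor, stood at 43.1, 42.1, 43.8 and 41.2 CPM, at 45.2, 40.7, 42.8, 40.8 and 43.7 and at 38.98, 38.4, 45.9, 41.01 and 36.6 in the same order of groups. For both genes all 3 groups overlapped, with mouse 16 high for Tomm20. For Tomm70a, which receives carrier proteins, the values were 189.9, 204, 184 and 197 CPM in NTG, 283, 195, 183, 173 and 182 in APP/PS1 and 178, 182, 207, 199 and 186 in CP2-treated mice. Mouse 16, the mouse with the high striatal markers, was far above the other 13, whose values lay together; the part of striatal tissue in its value was not tested. The log2 fold changes in APP/PS1 against NTG were -0.04 (95% interval -0.19 to 0.10) for Tomm20, 0.00 (95% interval -0.10 to 0.10) for Tomm22 and 0.07 (95% interval -0.23 to 0.37) for Tomm70a. Without mouse 16 that of Tomm70a was -0.08.

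Tomm5, Tomm6 and Tomm7 are small subunits that steady the TOM complex. Tomm7 had 51.7, 48.6, 42.4 and 40.4 CPM in NTG, 45.2, 43.95, 42.5, 44.9 and 39.1 in APP/PS1 and 38.9, 45.4, 41.2, 36.4 and 33.6 in CP2-treated mice. Mice 7 and 8 were highest and mouse 25 lowest, and the groups overlapped. Against vehicle, CP2-treated mice differed by -0.15 ± 0.0771 (SE; unadjusted p = 0.0835, adjusted p = 0.749), and against NTG by -0.23 ± 0.0951 (SE; unadjusted p = 0.0354, adjusted p = 0.205). Tomm6 stood at 51.9, 51.3, 55.8 and 53.9 CPM in NTG, 55.7, 54.8, 53.8, 59.98 and 51.95 in APP/PS1 and 54.8, 54.3, 49.6, 47.4 and 49.5 in CP2-treated mice. CP2-treated mice 23 to 25 lay below all vehicle APP/PS1 mice, and mice 21 and 22 within them. Its log2 fold change with CP2 was -0.12 ± 0.0521 (SE; unadjusted p = 0.0478, adjusted p = 0.744), past an unadjusted p of 0.05 in 7 of 18 alternatives. Of its exonic bases 84.2% are shared with other genes, 75.9% with Gm21981 on the same strand and 19.4% with the antisense Tomm6os, so the count of Tomm6 is uncertain. Tomm5 differed by -0.20 (95% interval -0.45 to 0.05) in APP/PS1 and by -0.24 ± 0.0933 (SE; unadjusted p = 0.0256, adjusted p = 0.173) in CP2-treated mice against NTG. Tomm34, a cytosolic cochaperone, had 56.3, 59.9, 59.4 and 58.9 CPM in NTG, 64.5, 62.6, 58.04, 57.4 and 60.4 in APP/PS1 and 58.8, 59.3, 54.2, 57.5 and 55.2 in CP2-treated mice. The groups overlapped, with log2 fold changes of 0.05 (95% interval -0.06 to 0.15) in APP/PS1 and -0.09 (95% interval -0.19 to 0.01) with CP2.

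In the TIM23 complex and its motor 9 of 10 rows were below 0 in APP/PS1 against NTG, with a median log2 fold change of -0.08, and 5 of 10 with CP2 against vehicle, with a median of -0.007. Timm23 (ENSMUSG00000013701, chr14:32180162-32201898), the channel of the inner membrane, had 22.7, 20.8, 20.1 and 18.1 CPM in NTG, 17.6, 18.7, 17.8, 17.3 and 15.9 in APP/PS1 and 17.3, 17.03, 19.1, 16.9 and 16.2 in CP2-treated mice. NTG mice 7 to 9 lay above all 10 APP/PS1 mice and NTG mouse 10 lay within them. The log2 fold change was -0.23 ± 0.0744 (SE; unadjusted p = 0.0126, adjusted p = 0.125) in APP/PS1 and -0.24 ± 0.0723 (SE; unadjusted p = 0.0075, adjusted p = 0.0885) in CP2-treated mice against NTG, and -0.01 (95% interval -0.15 to 0.12) between the APP/PS1 groups. It kept its direction in all 17 alternatives of both comparisons with NTG, each with an unadjusted p under 0.05. Timm17a, its partner in the channel, stood at 79.5, 87.1, 75.2 and 76.2 CPM in NTG, 69.8, 71.3, 75.97, 72.4 and 71.3 in APP/PS1 and 74.7, 75.8, 72.4, 72.8 and 75.02 in CP2-treated mice. Of the vehicle APP/PS1 mice mouse 18 alone stood above the lowest NTG mouse. Its log2 fold change was -0.14 ± 0.0518 (SE; unadjusted p = 0.0229, adjusted p = 0.176) in APP/PS1 against NTG.

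Timm50, the receptor that hands presequences to the channel, had 26.98, 24.1, 25.5 and 25.8 CPM in NTG, 22.1, 26.8, 24.7, 24.1 and 23.6 in APP/PS1 and 23.9, 24.8, 24.3, 23.96 and 23.03 in CP2-treated mice. Timm21, which links TIM23 with the TOM complex and the respiratory chain, had 9.96, 7.69, 8.10 and 7.93 CPM in NTG, 8.13, 8.46, 9.53, 9.99 and 8.16 in APP/PS1 and 8.61, 9.23, 7.97, 7.44 and 7.22 in CP2-treated mice. Both genes overlapped between all groups, and mouse 7 and mouse 19 were highest for Timm21. They differed by -0.08 (95% interval -0.22 to 0.06) and 0.07 (95% interval -0.16 to 0.30) in APP/PS1 against NTG. For the motor genes the log2 fold changes in this comparison were -0.05 for Timm44, -0.15 for Pam16, -0.05 for Grpel1 and -0.08 for Dnajc19, and none of them passed an unadjusted p of 0.05. The second Dnajc19 row, -0.10, lies inside the span of the first, so the 2 rows are no independent values. Of Pam16 18.7% and of Grpel1 11.7% of exonic bases are shared with other genes.

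Among the TIM22 complex and the small TIM chaperones 6 of 7 tested genes were below 0 in APP/PS1 against NTG (median log2 fold change -0.10), 6 of 7 with CP2 against vehicle (median -0.02) and 7 of 7 in CP2-treated mice against NTG (median -0.11). The channel gene Timm22 itself differed by 0.00 (95% interval -0.12 to 0.12) in APP/PS1. Timm8b had 58.4, 53.3, 45.01 and 41.4 CPM in NTG, 45.8, 46.4, 46.5, 48.8 and 40.01 in APP/PS1 and 42.8, 46.1, 44.9, 37.3 and 37.1 in CP2-treated mice. Mice 7 and 8 were highest, mice 24 and 25 lowest, and the NTG range held all vehicle APP/PS1 mice but mouse 20. It differed by -0.25 ± 0.104 (SE; unadjusted p = 0.0356, adjusted p = 0.206) in CP2-treated mice against NTG, and 15.6% of its exonic bases are shared with Nkapd1 on the other strand. Timm8a1, the mouse form of the gene of deafness-dystonia syndrome, was counted at only 2.43 ± 0.108 CPM in NTG (SD, n = 4), with 145 to 243 counts per mouse. It stood at 1.995 ± 0.256 CPM in APP/PS1 (SD, n = 5), and all NTG mice were above all of these 5. The log2 fold change was -0.28 ± 0.118 (SE; unadjusted p = 0.0377, adjusted p = 0.229). For Timm10 and Timm10b that in CP2-treated mice against NTG was -0.19 and -0.11, for Timm9 and Timm13 -0.11 and -0.08. Of the exonic bases of Timm10b 22.1% are shared with other genes. Timmdc1, an assembly factor of complex I and not a translocase, differed by -0.05 (95% interval -0.20 to 0.10) in APP/PS1 and -0.02 (95% interval -0.15 to 0.11) with CP2.

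Of the fusion genes Mfn1 alone passed an unadjusted p of 0.05, and it did so in opposite directions in the 2 comparisons that share the vehicle APP/PS1 mice. Mfn1 (ENSMUSG00000027668, chr3:32529465-32579239) had 81.02, 68.2, 75.6 and 73.04 CPM in NTG, 59.8, 64.3, 68.7, 67.9 and 65.8 in APP/PS1 and 71.1, 70.5, 68.1, 73.8 and 73.3 in CP2-treated mice. Mouse 16 was lowest and mouse 7 highest. Mouse 18 of the vehicle APP/PS1 group stood above NTG mouse 8 and CP2-treated mouse 23, so neither pair of groups was without overlap. The log2 fold change was -0.19 ± 0.0604 (SE; unadjusted p = 0.0106, adjusted p = 0.114) in APP/PS1 against NTG and 0.12 ± 0.0427 (SE; unadjusted p = 0.0144, adjusted p = 0.744) with CP2 against vehicle, and CP2-treated mice differed from NTG by -0.06 (95% interval -0.17 to 0.05). Both directions held in all alternatives, with an unadjusted p under 0.05 in 16 of 17 and 17 of 18 of them. A low value in the shared vehicle mice enters both differences. The summed thalamic markers, too, had their lowest median in the vehicle group (331 CPM, against 478 in NTG and 494 with CP2). So did those of dentate gyrus (105 CPM, against 150 and 120) and astrocytes (4485, against 5423 and 4655). The same held for striatum (288, against 296 and 298) and choroid plexus (349, against 465 and 613). It did not hold for neurons, microglia, oligodendrocytes and endothelium. The part of these sums in the Mfn1 values was not tested. Without mouse 16, the lowest, the 2 log2 fold changes were -0.16 and 0.10.

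Mfn2, which also tethers mitochondria to the endoplasmic reticulum, had 185, 198, 179 and 210.0 CPM in NTG, 179.9, 179, 180.0, 172 and 197 in APP/PS1 and 186, 178, 202, 202 and 206 in CP2-treated mice. The groups overlapped, and mouse 19 was lowest. It differed by -0.09 (95% interval -0.22 to 0.04) in APP/PS1 and 0.10 (95% interval -0.02 to 0.22) with CP2. Opa1 stood at 179, 181, 176 and 183 CPM in NTG, 194, 180.4, 179, 169 and 183 in APP/PS1 and 179, 168, 181, 182 and 187 in CP2-treated mice. Its log2 fold changes were 0.01 (95% interval -0.09 to 0.11) and -0.02 (95% interval -0.12 to 0.09) and the groups overlapped; gene-level counts say nothing of its spliced or cleaved forms. Of the proteases that cut it, Oma1 (ENSMUSG00000035069, chr4:103313812-103371868), the stress-activated one, had 5.67, 4.92, 5.30 and 5.21 CPM in NTG, 5.85, 6.30, 6.60, 6.41 and 5.71 in APP/PS1 and 6.71, 6.57, 5.99, 5.59 and 5.35 in CP2-treated mice. Every vehicle APP/PS1 mouse was above every NTG mouse, and CP2-treated mice 24 and 25 fell within the NTG range. The log2 fold change was 0.23 ± 0.0801 (SE; unadjusted p = 0.0175, adjusted p = 0.153) in APP/PS1 against NTG, with a p under 0.05 in 15 of 17 alternatives, and -0.04 (95% interval -0.22 to 0.15) with CP2. Yme1l1 had 96.3, 96.6, 76.2 and 83.03 CPM in NTG, 83.3, 88.4, 86.2, 85.2 and 84.1 in APP/PS1 and 80.5, 85.2, 88.6, 84.99 and 80.1 in CP2-treated mice. NTG mice 7 and 8 were highest and mouse 9 lowest, and it differed by -0.04 (95% interval -0.20 to 0.11) in APP/PS1.

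The fission GTPase gene Dnm1l had 231, 231, 223 and 244 CPM in NTG, 229, 242, 244, 226 and 235 in APP/PS1 and 242, 232, 249, 261 and 250.0 in CP2-treated mice. The groups overlapped, mouse 24 was highest, and the log2 fold changes were 0.02 (95% interval -0.08 to 0.12) in APP/PS1, 0.06 (95% interval -0.03 to 0.16) with CP2 and 0.09 (95% interval -0.01 to 0.19) in CP2-treated mice against NTG. Fis1 stood at 108, 99.3, 101 and 90.2 CPM in NTG, 96.5, 104, 104, 93.8 and 85.1 in APP/PS1 and 90.6, 95.7, 96.1, 79.7 and 83.3 in CP2-treated mice. Mice 24, 25 and 20 were lowest. It differed by -0.16 ± 0.0685 (SE; unadjusted p = 0.0376, adjusted p = 0.212) in CP2-treated mice against NTG and by -0.12 (95% interval -0.28 to 0.03) with CP2. Mff, the main receptor of Dnm1l in many cells, had 214, 205, 189.8 and 180.2 CPM in NTG, 170.0, 192, 194, 187 and 174 in APP/PS1 and 179, 188, 194, 176 and 168 in CP2-treated mice. NTG mice 7 and 8 were above all other mice, and the log2 fold change was -0.11 (95% interval -0.25 to 0.04) in APP/PS1 and -0.02 (95% interval -0.14 to 0.09) with CP2.

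Of the paired receptors Mief1 had 25.7, 26.9, 29.1 and 28.7 CPM in NTG, 29.9, 26.02, 26.7, 27.2 and 26.8 in APP/PS1 and 27.8, 26.8, 26.9, 27.5 and 27.4 in CP2-treated mice. All groups overlapped and the log2 fold changes were -0.02 (95% interval -0.15 to 0.12) in APP/PS1 and -0.01 (95% interval -0.11 to 0.10) with CP2. Mief2 stood at 16.9, 18.5, 17.2 and 18.6 CPM in NTG, 15.1, 16.6, 17.03, 15.9 and 15.3 in APP/PS1 and 18.03, 17.6, 18.2, 17.99 and 15.7 in CP2-treated mice. Mouse 18 of the vehicle APP/PS1 group lay above NTG mouse 7, and mouse 25 fell apart from the other CP2-treated mice. The log2 fold change was -0.15 ± 0.0603 (SE; unadjusted p = 0.0298, adjusted p = 0.204) in APP/PS1 against NTG and 0.13 ± 0.0569 (SE; unadjusted p = 0.0482, adjusted p = 0.744) with CP2 against vehicle. An unadjusted p under 0.05 was kept in 11 of 17 and 6 of 18 alternatives. As with Mfn1, both values rest on the same vehicle APP/PS1 mice beside the same marker sums, whose part was not tested.

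**Figure D3:**
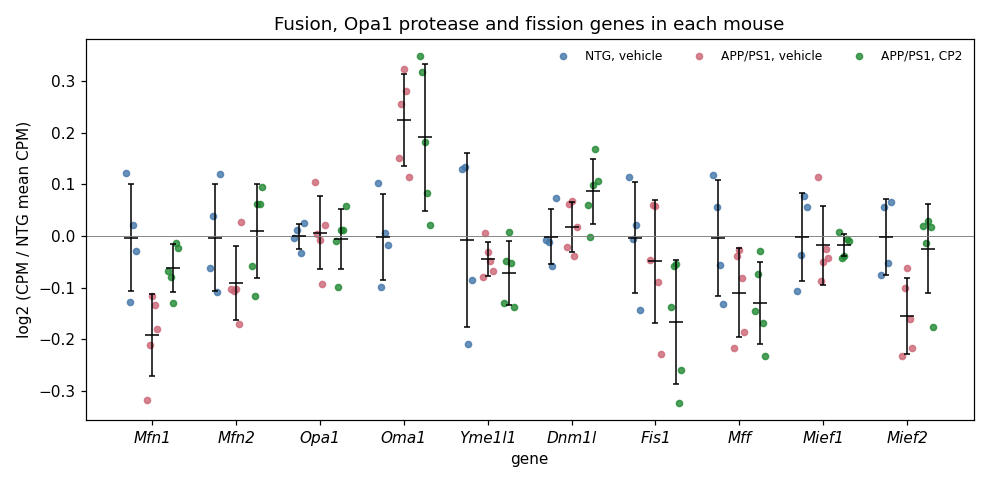
CPM of the fusion, Opa1 protease and fission genes in each mouse as log2 of the ratio to the NTG mean; points are mice, dashes and bars the mean and SD of 4 NTG, 5 vehicle APP/PS1 and 5 CP2-treated APP/PS1 mice. Oma1 in vehicle APP/PS1 mice lies above all NTG mice, Mfn1 and Mief2 are lowest in the vehicle APP/PS1 group, and Opa1, Dnm1l and Mief1 stay close to 0 in all groups.

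As a measure that does not depend on library scaling, the mean log2 CPM of the 3 fusion GTPase genes minus that of the 5 fission genes was taken in each mouse. It was 0.88 ± 0.042 in NTG (SD, n = 4), with values from 0.84 to 0.93. In vehicle APP/PS1 mice it was 0.85 ± 0.068 (SD, n = 5), from 0.79 to 0.96, and in CP2-treated mice 0.91 ± 0.087 (SD, n = 5), from 0.82 to 1.03. The ranges of all 3 groups overlapped, and mouse 25 had the highest value.

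With edgeR no member had an adjusted p under 0.05 in APP/PS1 against NTG. For the 4 members with the lowest unadjusted p there, promoter windows of 300 bases are shown, from 250 before to 50 after the start site. They come from RefSeq (GRCm38.p6) and run 5′ to 3′ on the gene's strand, with capitals for the ETS motif.
Mfn1 promoter, chr3:32529232-32529531, + strand: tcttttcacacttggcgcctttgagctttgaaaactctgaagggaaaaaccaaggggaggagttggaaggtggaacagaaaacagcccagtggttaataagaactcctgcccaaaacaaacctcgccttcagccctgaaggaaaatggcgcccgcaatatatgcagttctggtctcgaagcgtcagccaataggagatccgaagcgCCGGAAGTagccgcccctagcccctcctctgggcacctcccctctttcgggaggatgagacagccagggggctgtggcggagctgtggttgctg
Timm23 promoter, chr14:32201842-32202141, - strand: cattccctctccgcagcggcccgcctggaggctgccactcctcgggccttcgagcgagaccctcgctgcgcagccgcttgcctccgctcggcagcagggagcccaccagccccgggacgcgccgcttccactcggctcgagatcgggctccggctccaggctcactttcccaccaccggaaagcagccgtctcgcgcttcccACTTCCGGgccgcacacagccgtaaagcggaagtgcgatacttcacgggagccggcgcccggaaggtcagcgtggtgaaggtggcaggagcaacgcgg
Tomm40 promoter, chr7:19715380-19715679, - strand: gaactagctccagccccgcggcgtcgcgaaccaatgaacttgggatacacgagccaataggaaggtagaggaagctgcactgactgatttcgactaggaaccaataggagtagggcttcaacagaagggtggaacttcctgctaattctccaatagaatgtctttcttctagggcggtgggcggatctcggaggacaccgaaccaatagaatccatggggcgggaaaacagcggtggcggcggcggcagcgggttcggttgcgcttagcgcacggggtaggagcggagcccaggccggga
Oma1 promoter, chr4:103313596-103313895, + strand: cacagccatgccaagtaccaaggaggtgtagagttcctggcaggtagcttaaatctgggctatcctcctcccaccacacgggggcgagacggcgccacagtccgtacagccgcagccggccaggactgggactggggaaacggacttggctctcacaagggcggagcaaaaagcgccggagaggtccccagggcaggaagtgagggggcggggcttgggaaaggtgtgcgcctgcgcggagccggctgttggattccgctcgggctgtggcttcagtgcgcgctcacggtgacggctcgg

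Some motifs, 3 in number, of factors known for genes of mitochondrial proteins were searched on both strands: the ETS motif bound by GABP (CCGGAAGT or ACTTCCGG), that of NRF1 (GCGCATGC or GCATGCGC) and that of YY1 (AAGATGGC or GCCATCTT). The 2 orientations of the ETS and NRF1 motifs can overlap each other, and a gene was counted once. The ETS motif stood in the windows of Mfn1, 44 bases before the start site, and of Timm23, 48 bases before it, and none of the 3 motifs was in those of Tomm40 and Oma1. Of 39 symbols 36 had a window. The ETS motif was in 9 of these (25%, against 4.31% of 27025 genes with a window): Fis1, Mfn1, Mief1, Timm10, Timm10b, Timm23, Timm8a2, Timmdc1 and Tomm70a. Among members tested it was in 8 of 34 (23.5%, against 8.08% of 11121 symbols tested that had a window). NRF1 motifs were in 3 (8.33% against 3.05%, and among those tested 8.82% against 5.58%) and YY1 motifs in 1 (2.78% against 3.19%, and among those tested 2.94% against 4.76%). In APP/PS1 against NTG 2 of the 8 tested genes with the ETS motif had an unadjusted p under 0.05, Mfn1 and Timm23, and 6 did not, while 8 of all 38 members and 18.7% of all genes did. These are matches of letters and no measured binding.

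Across mice the members moved in part together. Mouse 7 (NTG) had the highest level of all 14 mice for 14 of the 38 members, and mouse 25 (CP2-treated) the lowest for 11. Mice 16 and 20 were lowest for 6 members each and mouse 24 for 5. Over the 38 members the median log2 deviation from the mean of all mice was 0.06 ± 0.041 in NTG (SD, n = 4), -0.02 ± 0.039 in APP/PS1 (SD, n = 5) and -0.02 ± 0.052 in CP2-treated mice (SD, n = 5). The map of members by mouse shows each member's deviation.

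**Figure D4:**
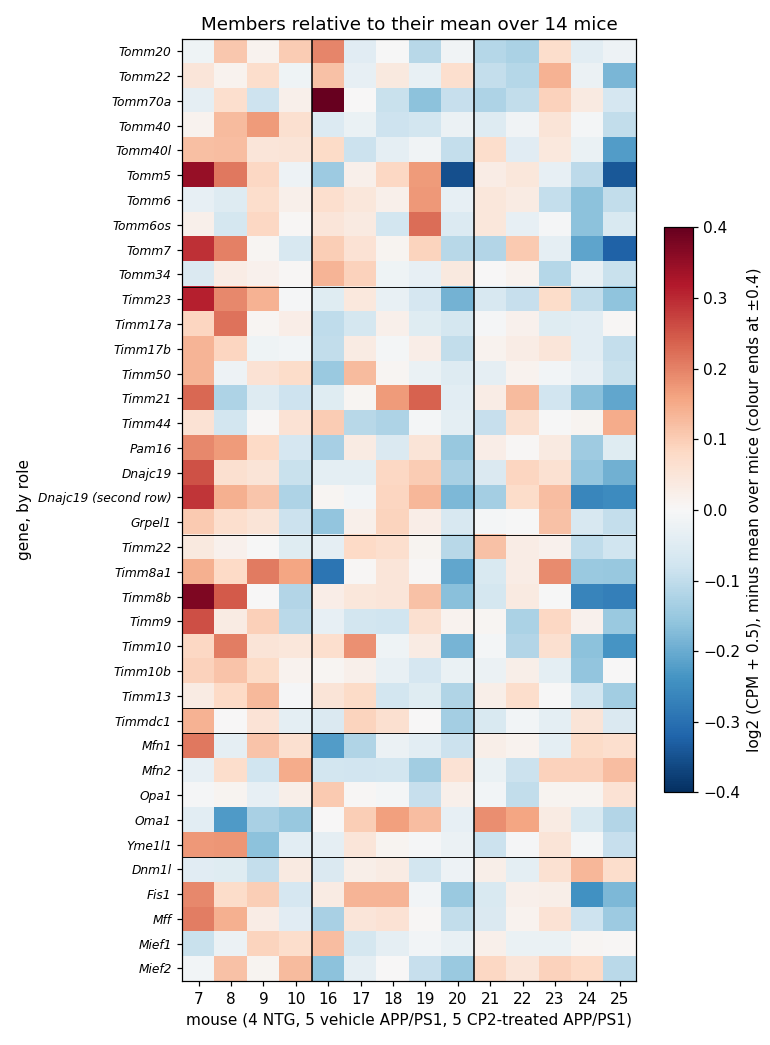
Log2 (CPM + 0.5) of the 38 tested members in each mouse minus the gene's mean over 14 mice, rows by role and columns by group; red is above and blue below the mean, and the colour scale ends at 0.4. Mouse 7 is highest for 14 members, mouse 25 lowest for 11, and Tomm70a stands out in mouse 16.

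The length of the transcripts moved with this pattern. When members and other genes were parted at 1500 bases of the length given in the deposited table, a value chosen after the data were seen, 13 members were short and 25 long. The short members had a median deviation of 0.23 in mouse 7, -0.13 in mouse 20, -0.16 in mouse 24 and -0.19 in mouse 25. Other short genes deviated in the same direction in these mice, by 0.06, -0.03, -0.06 and -0.07. Other long genes stayed within -0.02 and 0.02 in all mice. In APP/PS1 against NTG the median log2 fold change was -0.09 in short and -0.05 in long members, against -0.02 in 2500 other short genes and 0.00 in other long genes. With CP2 against vehicle it was -0.09 and -0.01, against -0.05 in 2485 other short genes and 0.00 in other long genes. In CP2-treated mice against NTG it was -0.13 in short members, all 13 of which were below 0, and -0.06 in long members, against -0.06 in 2484 other short genes (65.8% of them below 0) and 0.01 in other long genes. The lower values of Tomm7, Timm8b, Tomm5, Timm10 and Timm8a1 are therefore given beside this shift of short genes, whose part in them was not tested. Of the members with an unadjusted p under 0.05 in APP/PS1 against NTG, Timm8a1 alone is short, at 1421 bases. Tomm40, Mfn1, Timm23, Timm17a, Mief2, Tomm40l and Oma1 all exceed 1500 bases. By all annotated exons of GENCODE M21 instead, which 37 of the 38 members have, 7 members were short, since Dnajc19, Timm9, Timm21, Pam16 and Tomm22 then exceed 1500 bases. Their median log2 fold changes in the 3 comparisons were -0.09, -0.12 and -0.21, against -0.03, -0.05 and -0.06 in other short genes, and those of the 30 long members were -0.05, -0.02 and -0.06.

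**Figure D5:**
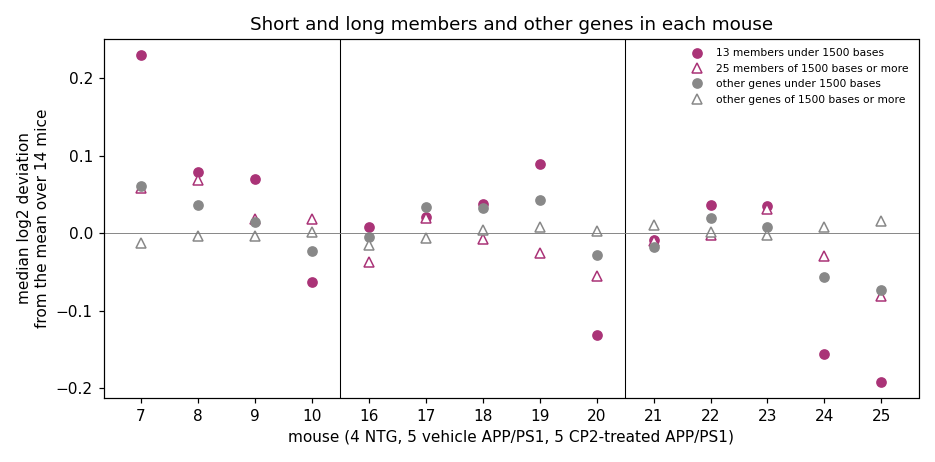
Median log2 deviation from the mean over 14 mice in each mouse, for members (coloured) and other genes tested (grey) under 1500 bases of deposited length (filled circles) or of 1500 bases or more (open triangles). Short members are highest in mouse 7 at 0.23 and lowest in mouse 25 at -0.19, other short genes move less in the same direction, and other long genes stay near 0.

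Other genes of the same pathways were examined as lists. Of 24 other import genes 16 were below 0 in APP/PS1 against NTG (median log2 fold change -0.03), 20 with CP2 against vehicle (-0.05) and 17 in CP2-treated mice against NTG (-0.06), beside 51.2, 52.5 and 50.6% of all genes. At an unadjusted p under 0.05, 1, 0 and 7 were lower (8.05, 3.66 and 8.59% of all genes) and 0 higher in each, and in the third 4 of the 24 did not overlap between groups (9.73% of all genes). The 1 gene of these lists with an adjusted p under 0.05 was Immp1l, a peptidase of the inner membrane. This was in CP2-treated mice against NTG, where 6.02% of all genes had one with edgeR. Immp1l fell there by 0.33 ± 0.081 (SE) on the log2 scale (unadjusted p = 0.00182, adjusted p = 0.0371, edgeR). In the other comparisons it differed by -0.21 (adjusted p = 0.266) and -0.13 (adjusted p = 0.749). After it in order of p came Romo1 in APP/PS1 against NTG (-0.14, unadjusted p = 0.0747) and Oxa1l, the insertase for proteins made in the matrix, with CP2 (-0.07, unadjusted p = 0.107). In CP2-treated mice against NTG it was Hspa8, a cytosolic chaperone named after its values were seen (-0.22, unadjusted p = 0.00432, adjusted p = 0.0631). Of the 7 cristae genes of the MICOS complex 6, 7 and 7 were below 0 in the 3 comparisons, and 0, 1 and 4 were lower at an unadjusted p under 0.05, with 0 higher (shares of all genes as above). The lowest p belonged to Minos1 (-0.11, edgeR unadjusted p = 0.134) and Chchd3 (-0.13, unadjusted p = 0.141) in APP/PS1. With CP2 it was Chchd6 (-0.14, unadjusted p = 0.0323) and 2410015M20Rik (-0.15, unadjusted p = 0.102), and in the third comparison Chchd3 (-0.21, unadjusted p = 0.0155) and Chchd6 (-0.11, unadjusted p = 0.0180). None had an adjusted p under 0.05.

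Of 18 other genes of mitochondrial shape 11, 7 and 12 were below 0 (51.2, 52.5 and 50.6% of all genes). An unadjusted p under 0.05 in either direction was reached by 3, 0 and 3 (18.7, 6.55 and 20.2% of all genes). Dnm2, a dynamin of endocytosis, differed by 0.25 ± 0.065 (SE; unadjusted p = 0.00378, adjusted p = 0.0592) in APP/PS1 against NTG, and Fam73b (mitoguardin 2) by -0.15 (unadjusted p = 0.0120). With CP2 the lowest p were those of Fam73b (0.08, unadjusted p = 0.0583) and the rhomboid protease gene Parl (-0.07, unadjusted p = 0.135), and in CP2-treated mice against NTG those of Stoml2 (-0.20, unadjusted p = 0.0144) and Dnm2 (0.17, unadjusted p = 0.0155). A list of 9 genes of mitochondrial transport held motor adaptors, the kinesin motor genes Kif5a, Kif5b and Kif5c and Snph, which docks mitochondria. All 9 were below 0 in APP/PS1 against NTG (median -0.12), 3 with CP2 and 8 in CP2-treated mice against NTG. Of all genes 51.2, 52.5 and 50.6% were. At an unadjusted p under 0.05 there were 2, 1 and 3 (18.7, 6.55 and 20.2% of all genes). Of the 12 neuronal markers 10, 5 and 9 were below 0 in the same order, and their part in the transport values was not tested. Rhot2 (Miro2), the anchor of the motors on the outer membrane, differed by -0.20 ± 0.061 (SE; unadjusted p = 0.00732, adjusted p = 0.0896) and the kinesin gene Kif5a by -0.23 (unadjusted p = 0.0320) in the first comparison. With CP2 Trak1 (0.09, unadjusted p = 0.0459) and Rhot2 (0.07, unadjusted p = 0.186) had the lowest p, and in the third Kif5a (-0.20, unadjusted p = 0.0148) and Rhot2 (-0.13, unadjusted p = 0.0166). None of these had an adjusted p under 0.05.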

How the data were processed

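Gene expression was measured by RNA sequencing of 14 mouse brain samples, whose groups come from the labels. The authors made TruSeq RNA v2 libraries, which do not mark strand, aligned paired reads with TopHat2 to mm10 in the MAP-RSeq pipeline and counted them with featureCounts of the Subread package on each gene a read overlapped; the aligner's minor version, the counter's version and the strand setting are not given in the sources used here. The deposited read counts are not normalized. The deposited RPKM values were computed by the authors and used here only for levels per length. Total counts of 70548781 to 106235625 per mouse make 1 count worth 0.00941 to 0.0142 CPM. Counting error weighs most in the tested members with the fewest counts, Timm8a1 at 145 to 243 and Oma1 at 331 to 719 counts per mouse. In these it is not small beside the spread between mice.

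The members and gene lists were chosen with earlier results of these data known. Values of every mouse were printed for the named fusion, fission and core import genes and for the 4 members with the smallest unadjusted p in each direction in each of the first 2 comparisons; of the pathway lists, genes with an adjusted p under 0.05 or else the 2 smallest unadjusted p were named. Further members are named with a fold change only. Each pair of groups was fitted alone with edgeR 4.0.16 (R 4.3.3; TMM factors 0.953 to 1.03, quasi-likelihood test, Benjamini-Hochberg adjustment over all genes tested) after a filter of robust CPM over 1 in every mouse of at least 1 group. SE is the log2 fold change divided by the root of its F value, and 95% intervals use the same test's degrees of freedom. No 2 replicates had like counts (26 pairs; chi-square per degree of freedom at least 10.5). The procedure was tested on simulated data. Alternatives were DESeq2 1.42.0, other factors and filters, all groups in one fit, limma-voom 3.58.1 with quality weights, the ribosomal RNA share as a covariate and leaving out each mouse; the split by length was added after the data were seen. Exon overlaps come from GENCODE M21 (GRCm38) and promoters from RefSeq (GRCm38.p6). Protein sequences were not used here.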

Additional observations from a re-analysis of the deposited data

Results flagged for a closer look

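Of 114 sets of values (38 members in 3 groups) 2 held a mouse whose distance from the nearest other mouse was a large share of the group's range; chance gives about 5% of groups. Tomm70a in vehicle APP/PS1 mouse 16 was 283 CPM, against 173 to 195 CPM in the other 4 mice of its group. Mief2 in CP2-treated mouse 25 was 15.7 CPM, against 17.6 to 18.2 CPM in the other 4.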

How the results depend on the processing

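The median log2 fold change of the members kept its sign in every alternative of all 3 comparisons but not its size: when 1 mouse was left out it ranged from -0.090 to -0.034 (without mouse 7) in APP/PS1 against NTG, from -0.036 to -0.0053 with CP2 against vehicle and from -0.11 to -0.064 in CP2-treated mice against NTG. The number below 0 stayed within 1.5 times the reported one. Counts of calls, which rest on small differences, moved more. In APP/PS1 against NTG the members with an adjusted p under 0.05 were 0 as reported (5.68% of all genes). They were 2 with DESeq2 (10.2%) and with all 3 groups in one fit (7.90%), and 1 with limma-voom (9.52%). Those at an unadjusted p under 0.05, 8 as reported (18.7%), were 3 with the ribosomal RNA share as a covariate (14.8%). They were 4 to 7 when 1 mouse was left out (15.2 to 22.2%). With CP2 against vehicle the 3 unadjusted calls (6.55% of all genes) became 1 with upper-quartile factors (6.42%) and without a filter (5.27%). They became 0 with the covariate (4.43%) and 1 to 6 when 1 mouse was left out (3.90 to 9.54%). In CP2-treated mice against NTG the adjusted calls were 0 as reported (6.02% of all genes). They were 1 with DESeq2 (10.2%) and 0 to 1 when 1 mouse was left out (3.47 to 6.80%). The 8 unadjusted calls (20.2%) were 4 with the covariate (18.5%) and 2 to 14 when 1 mouse was left out (16.7 to 22.2%). The causes were not tested. Low counts limit Timm8a2 and Tomm20l most and, less, Timm8a1 and Oma1.

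The sign changed in 46 of 1144 fits of the named members, in 11 members, and in none of these was the unadjusted p under 0.05 in either fit. In APP/PS1 against NTG the log2 fold change of Opa1 became -0.0020 without a filter, -0.00832 with limma-voom and -0.030 with the covariate, that of Tomm22 -0.0070, -0.013 and -0.00646, and that of Tomm70a -0.038 with limma-voom and -0.15 with the covariate. When 1 mouse was left out it ranged from -0.022 to 0.032 for Opa1, -0.11 to 0.0049 for Yme1l1, -0.055 to 0.017 for Mief1, -0.024 to 0.019 for Tomm22 and -0.083 to 0.12 for Tomm70a. With CP2 against vehicle it became 0.025 for Mief1 and 0.0020 for Tomm70a with limma-voom, and 0.017 for Opa1, 0.032 for Mief1 and 0.059 for Tomm70a with the covariate. Leaving out 1 mouse gave -0.043 to 0.013 for Opa1, -0.073 to 0.0017 for Oma1, -0.026 to 0.033 for Mief1, -0.15 to 0.055 for Tomm70a, -0.052 to 0.0080 for Timm23 and -0.048 to 0.016 for Timm50. In CP2-treated mice against NTG Mfn2 became -0.0027 with limma-voom. Leaving out 1 mouse gave -0.022 to 0.042 for Mfn2, -0.021 to 0.019 for Opa1, -0.050 to 0.0098 for Mief1, -0.046 to 0.013 for Mief2, -0.055 to 0.0033 for Tomm70a and -0.11 to 0.034 for Timm21. No paired analysis was possible because the groups share no replicate numbers.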
